A study of Mus musculus with 45 samples.

Results

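The nuclear-encoded subunits of the mitochondrial respiratory chain and of ATP synthase were followed in mouse splenic B cells that were resting or had been cultured for up to 10 days toward antibody-secreting plasma cells. Members were protein-coding rows, present in both deposited expression tables, whose symbol is Nduf followed by a, b, c, s or v and a digit, Sdha to Sdhd, or starts with Uqcr, Cox4 to Cox8, or Atp5. The rule took 83 of 28196 rows: 37 for complex I, 4 for complex II, 8 for complex III, 16 for complex IV and 18 for complex V. All 83 passed the filter on low values in both tables. The value stayed above 7 on the log2 scale in every library for 64 of them, and 8 (Atp5s, Cox4i2, Cox6a2, Cox6b2, Cox7a1, Cox7b2, Ndufa4l2 and a second Atp5o row) never held more than 500 reads. The 83 rows carry 82 symbols, because Atp5o stands on 2 rows. The second of these (ENSMUSG00000116933.1) overlaps the first, Cryzl1 and Donson on the same strand, so its values are uncertain. Another 12 members overlap a gene on the same strand and 30 overlap one on the opposite strand, and whether the counting used the strand is not given in the sources used here. Each complex follows its symbols: Ndufa4 and Ndufa4l2 are counted with complex I, although the Ndufa4 protein is now placed in complex IV.

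Complex I (NADH dehydrogenase) and complex II (succinate dehydrogenase) pass electrons from NADH and succinate to ubiquinone, complex III (the cytochrome bc1 complex) passes them on to cytochrome c, and complex IV (cytochrome c oxidase) passes them to oxygen. Complexes I, III and IV pump protons, and complex V (ATP synthase) lets the protons return to make ATP. Complexes I, III, IV and V also contain subunits encoded by mitochondrial DNA, so nuclear and mitochondrial transcripts must be supplied together, while complex II is wholly nuclear and doubles as an enzyme of the TCA cycle. Activated B cells grow and divide, and plasma cells export large amounts of antibody, which costs ATP. Blimp-1, the product of Prdm1, is the transcription factor that drives the plasma cell programme.

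The 45 libraries (total RNA depleted of ribosomal RNA, single reads) fall into 15 groups of 3, all from C57BL/6 mice. dEx1A cells came from 9-week-old females lacking exon 1A of Prdm1 and were sampled at days 4 and 7 of LPS, TLR and BCR cultures. Wild-type (WT) cells comprised resting B cells at day 0, LPS cultures at days 4 and 7, and TLR and BCR cultures at days 4, 7 and 10. The WT LPS mice were 9-week-old females and the other WT mice 7-week-old males by their sample labels, although the protocol text calls the mice matched. TLR cultures grew on irradiated L cells, a mouse fibroblast line, expressing CD40L, with 5 µg/mL LPS plus the cytokines IL-4 and IL-5 (50 ng/mL of either). In BCR cultures 12 µg/mL of F(ab')2 antibody against IgM/IgG stood in for LPS. At day 2 cells were taken off the feeders, and day 4 brought 10 ng/mL IL-6 and 100 ng/mL APRIL, together with a lipid and an amino acid supplement. No source used here says what the LPS cultures contained. Whether replicate samples are separate mice is also not stated, and p-values therefore measure only the spread between the samples, which may be technical. Prdm1 was lower in dEx1A than in WT cells in 5 of 6 comparisons, with differences of -2.68 to -1.38 on the log2 scale, and did not pass in TLR cultures at day 4 (difference 0.29, adjusted p = 0.571). Its values cover the whole gene, and exon 1A is not separate in them.

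Promoters of members were searched because each of the 5 complexes had members that were higher at day 4 than at day 0. Whether members with a motif rose more than others was not tested. RefSeq (GRCm38.p6) gave a promoter of 300 bases, 250 before and 50 after the start, for 67 members, 65 by symbol and 2 by an older symbol. The NRF1 motif (GCGCA, any base N, GCGC) stood in 16 of the 67 (23.9%), against 1293 of all 27025 promoters of that length (4.78%). These 27025 include genes not expressed here, and shares over expressed genes alone were not taken. The ETS motif bound by GABP, CCGGAAG, stood in 15 member promoters (22.4%, against 9.12% of all), the YY1 motif AAGATGGCG in 6 (8.96%, against 1.49%) and the ERR motif CAAGGTCA in 4 (5.97%, against 1.53%). At least 1 of these 4 motifs stood in 32 member promoters (47.8%) and in 15.4% of all. Both strands were searched and the 4 motifs do not contain one another. NRF1 and GABP are known as activators of respiratory subunit genes, and ERR factors act with PGC-1 coactivators. A match describes the letters only. Of the 6 promoters with the YY1 motif, 5 belong to complex I and 1 to complex V. For each complex, a promoter holding the most different motifs (in complexes I, III and V others hold as many, and the member with the larger WT LPS day 4 difference was taken) is printed 5′ to 3′ with the matches in capitals, to show what a member promoter looks like. All 5 lie on the minus strand: Ndufs5 at chr4:123718137-123718436, Sdhd at chr9:50603800-50604099, Uqcr11 at chr10:80406772-80407071, Cox6a1 at chr5:115348909-115349208 and Atp5k at chr5:108434350-108434649.
Ndufs5 (NRF1 at -98, ERR reversed at -228): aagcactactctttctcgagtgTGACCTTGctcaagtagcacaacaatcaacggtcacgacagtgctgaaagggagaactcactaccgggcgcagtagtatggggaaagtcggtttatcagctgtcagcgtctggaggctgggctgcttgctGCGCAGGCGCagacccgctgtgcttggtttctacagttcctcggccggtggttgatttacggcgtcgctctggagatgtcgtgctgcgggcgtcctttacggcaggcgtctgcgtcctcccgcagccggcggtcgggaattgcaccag
Sdhd (NRF1 at -79, ETS reversed at -46, ERR reversed at 37): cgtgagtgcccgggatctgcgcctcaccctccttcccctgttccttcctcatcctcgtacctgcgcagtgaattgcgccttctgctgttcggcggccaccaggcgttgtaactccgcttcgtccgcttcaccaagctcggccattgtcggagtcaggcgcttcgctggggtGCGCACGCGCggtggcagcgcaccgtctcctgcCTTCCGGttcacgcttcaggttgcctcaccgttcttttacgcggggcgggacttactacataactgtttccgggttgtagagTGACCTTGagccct
Uqcr11 (ETS at -66): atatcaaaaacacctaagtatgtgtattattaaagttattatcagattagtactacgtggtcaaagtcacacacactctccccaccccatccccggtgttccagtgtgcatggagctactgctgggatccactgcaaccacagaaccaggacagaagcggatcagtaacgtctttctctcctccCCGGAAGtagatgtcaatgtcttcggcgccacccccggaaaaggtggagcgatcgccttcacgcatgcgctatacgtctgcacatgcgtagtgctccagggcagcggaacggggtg
Cox6a1 (NRF1 at -162 and -117, ETS reversed at -16): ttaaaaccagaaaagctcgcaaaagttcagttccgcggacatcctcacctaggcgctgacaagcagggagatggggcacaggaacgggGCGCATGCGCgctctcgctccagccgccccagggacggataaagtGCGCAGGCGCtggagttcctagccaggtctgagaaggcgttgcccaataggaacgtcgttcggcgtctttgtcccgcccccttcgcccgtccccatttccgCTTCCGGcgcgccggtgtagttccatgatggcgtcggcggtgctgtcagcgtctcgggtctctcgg
Atp5k (NRF1 at -50, ETS reversed at 13): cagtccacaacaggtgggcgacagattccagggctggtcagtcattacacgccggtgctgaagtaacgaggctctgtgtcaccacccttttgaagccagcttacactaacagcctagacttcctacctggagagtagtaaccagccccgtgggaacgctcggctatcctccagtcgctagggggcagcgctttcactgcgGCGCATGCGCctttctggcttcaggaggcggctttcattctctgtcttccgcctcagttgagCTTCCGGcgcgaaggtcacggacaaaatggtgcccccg
Positions are of the first base of the match, counted from the start, and a reversed match is the motif's reverse complement.

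The libraries held 15.1 to 35.6 M recovered reads (median 23.2 M), and 15 of them held under 20 M: WT LPS at days 4 and 7 and all dEx1A cultures at day 7. These 15 also differed in GC content. The GC offset of a library, the median log2 deviation of the 25% of expressed protein-coding genes richest in GC less that of the 25% poorest, was 0.73 to 1.68 in them and -1.92 to 0.61 in the other 30. Members are short and slightly GC-rich: their median transcript length is 701 bases against 1782 bases for 7409 expressed protein-coding genes, and their median GC content 51.3% against 48.9%. Comparisons between the depth sets (WT LPS day 4 with day 0, and dEx1A with WT in LPS at day 4 and in TLR and BCR at day 7) therefore cannot be told apart from depth and GC offset by design, and values for the GC-rich and GC-poor members are given beside them. Feeder fibroblast markers (10 genes) summed to 87.5 to 309 RPM (reads scaled to a common library total) in TLR and BCR cultures of either genotype at day 4, where Dcn was at 0 in 3 of the 4 groups, and to at most 1.32 in LPS cultures. B cell markers, among them Cd79a and Ms4a1, were read in every group, but their sums differed. They were 10662 to 11185 RPM at day 0, and 832 to 1280 in TLR and 1041 to 1549 in BCR cultures at day 10. At day 7 they were 1447 to 1699 in dEx1A and 2005 to 2386 in WT TLR cultures. In BCR cultures of that day they were 2079 to 3130 in dEx1A and 3342 to 3975 in WT, and in LPS cultures 2490 to 3082 and 4616 to 4721. Macrophage markers (10 genes, none at 0 in any group) reached 11617 and 14122 RPM in BCR day 10 samples 1 and 2, against 1267 in sample 3. In such bulk samples, fewer cells of a type and less RNA per cell cannot be told apart.

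**Figure D1:**
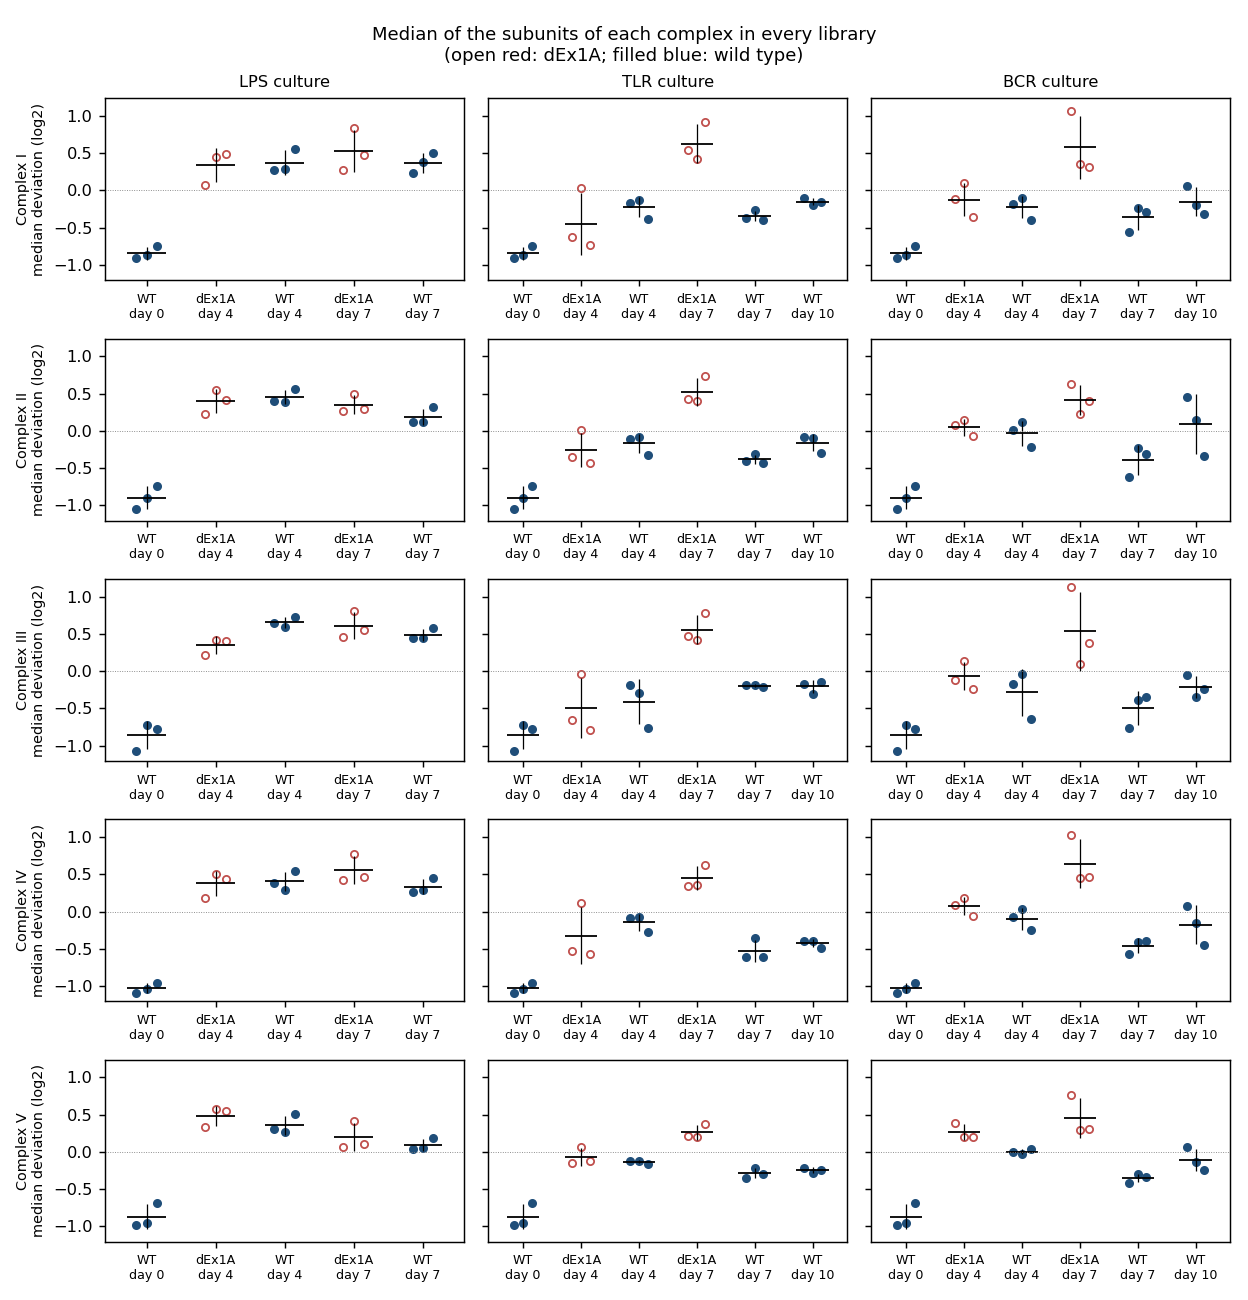
Median deviation of the members of each complex from their own mean over all libraries (vertical axis, log2 units) in every library, with 1 row of panels per complex and 1 column per culture. Open red points are dEx1A and filled blue points WT libraries, a horizontal line is the mean and a vertical line ± SD of 3. Day 0 lies below the day 4 libraries of LPS culture in every complex, overlaps with TLR and BCR libraries in complex III (-1.07 to -0.72 at day 0) but not in the other 4, and at day 7 of TLR and BCR cultures the dEx1A libraries lie above the WT libraries of that day.

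Between day 0 and day 4, members of all 5 complexes rose. In WT LPS cultures 74 of 83 members were higher and 1 lower at adjusted p below 0.05 (limma, Benjamini-Hochberg adjusted over all tested genes), where 27.3% of all genes were higher and 30.8% lower. The members' median difference was 1.40 on the log2 scale, beside -0.01 for all genes. In WT BCR cultures 46 members were higher and 1 lower (all genes 26.1% and 24.5%), with a median of 0.77. In WT TLR cultures 42 were higher and 0 lower (all genes 24.9% and 23.5%), with a median of 0.67, and none was lower at an unadjusted p below 0.05 either. These 3 comparisons share the day 0 samples. In TLR cultures the median difference was 0.55 for GC-rich and 0.85 for GC-poor members, and in BCR cultures 0.55 and 0.93. The LPS comparison also crosses sex, age and depth set: the median difference was 1.91 for the 42 GC-rich and 1.01 for the 41 GC-poor members, of which 33 were higher and 1 lower. After a correction for GC content and length, 70 members were higher and 3 lower, with a median of 1.11. The dEx1A LPS cultures of day 4, which belong to the deeper set and were not tested against day 0, had complex I medians of 0.08 to 0.49 against -0.91 to -0.75 at day 0 on the scale of the plot of complex medians, and WT LPS cultures of day 4 had 0.27 to 0.56. As a share of reads outside immunoglobulin genes, the members made up 1.11 ± 0.0929% in WT LPS day 4 cultures, 0.737 ± 0.0769% in WT TLR and 0.817 ± 0.0663% in WT BCR cultures of that day, against 0.441 ± 0.0341% at day 0 (SD, n = 3 each).

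**Figure D2:**
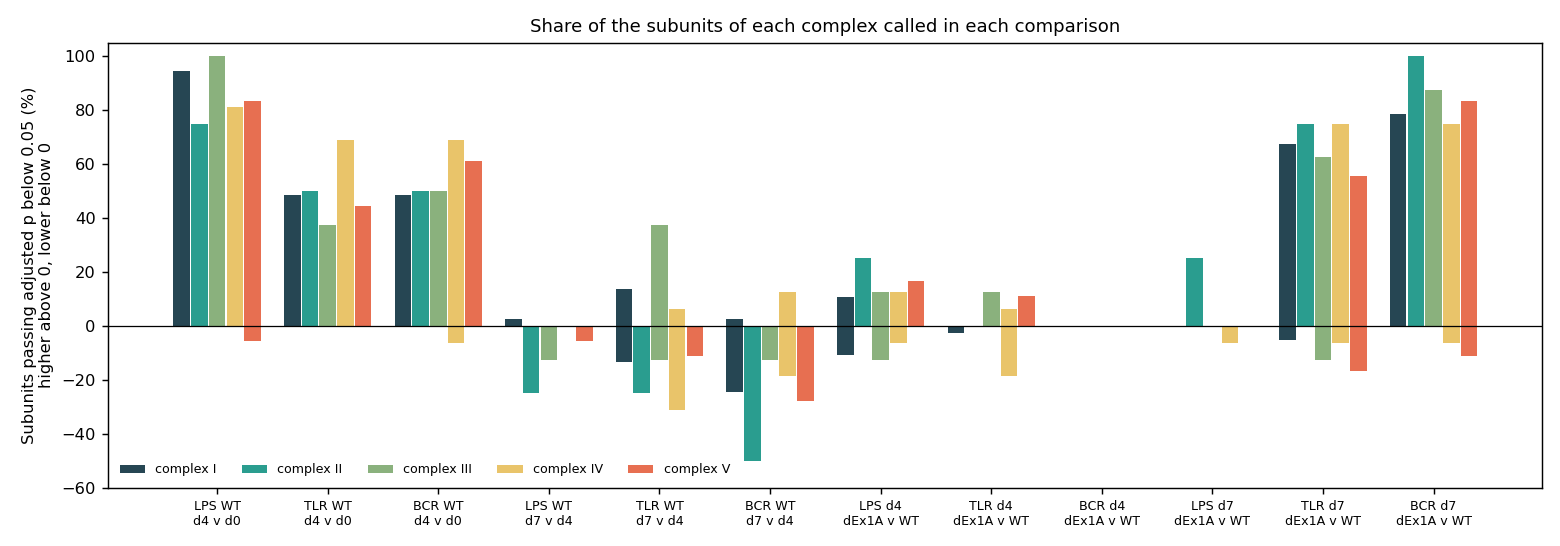
Percent of the members of each complex called higher (upward bars) or lower (downward bars) at adjusted p below 0.05 in 12 comparisons. The tallest sets of bars belong to WT LPS day 4 over day 0, where 74 of 83 members were higher (all genes 27.3%), and to dEx1A over WT at day 7 of TLR and BCR cultures, with 55 and 67 higher (all genes 26.2% and 25.8%).

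After day 4 fewer members were called. From day 4 to day 7, 9 were higher and 14 lower in WT TLR cultures (all genes 17.7% and 18.6%; median difference -0.17), and 3 higher and 20 lower in WT BCR cultures (all genes 15.3% and 15.2%; median -0.26). Leaving out WT BCR day 7 sample 3 gave 15 calls in BCR in place of 23. After the correction for GC content and length these counts were 9 higher and 32 lower in TLR and 3 higher and 41 lower in BCR cultures. WT LPS cultures had 1 member higher and 3 lower (all genes 4.75% and 3.65%; median -0.12). Those 4 calls were 0 without day 4 sample 3, 1 or 2 without any 1 of the other 5 libraries, and 9, all lower, after the correction for GC content and length. From day 7 to day 10, 1 was higher and 1 lower in TLR (all genes 3.51% and 4.69%), and 9 were higher and 0 lower in BCR cultures (all genes 10.8% and 5.91%). That BCR count was 2 without day 10 sample 1, 5 without day 10 sample 2, 16 without day 10 sample 3 and 3 without day 7 sample 3. Macrophage markers moved with this step, at 11617, 14122 and 1267 RPM in BCR day 10 samples against 199 to 501 at day 7, and at 194, 2512 and 375 in TLR day 10 samples against 96.8 to 168 at day 7. Their part in these counts was not tested. At day 10, 42 members were above day 0 in TLR and 1 below (all genes 22.9% and 23.1%; median 0.62), and 47 above and 0 below in BCR cultures (all genes 29.5% and 22.8%; median 0.77). Their share of all reads was 0.234 ± 0.0131% in WT TLR day 10 cultures and 0.432 ± 0.0336% at day 0 (SD, n = 3 each), while immunoglobulin genes took 61.4 ± 4.42% of the reads there. Outside immunoglobulin genes the share was 0.608 ± 0.0405% in WT TLR day 10 cultures and 0.441 ± 0.0341% at day 0.

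At each day, the members called between TLR and BCR cultures made up shares near or below those of all genes. In WT cells 2 members were higher and 2 lower in TLR than in BCR cultures at day 4 (all genes 4.3% and 3.27%), 3 higher and 0 lower at day 7 (3.77% and 2.5%), and 0 higher and 2 lower at day 10 (4.29% and 10.1%). The day 4 count fell to 0 without TLR day 4 sample 1 and to 1 without BCR day 4 sample 3. The day 7 count was 0 or 1 with any 1 of the 6 libraries left out, and the day 10 count was 0 without BCR sample 1, BCR sample 2 or TLR sample 1 and 12 without BCR sample 3. The median difference of GC-rich and GC-poor members was -0.02 and -0.21 at day 4, -0.21 and 0.21 at day 7, and 0.04 and -0.20 at day 10. With the correction for GC content and length each of these counts was larger, as given in the last section. The change from day 4 to day 7 differed between the cultures for 2 members, Ndufa4 and Uqcrfs1 (all genes 0.862% higher and 0.826% lower in TLR). For the change from day 7 to day 10 no member passed in limma (all genes 0% higher and 0.0667% lower) or in limma-voom, with 9 and 7 at an unadjusted p below 0.05, all lower in TLR.

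In TLR and BCR cultures more members were called between genotypes at day 7 than at day 4, and in LPS cultures fewer were. The same held for all genes. In TLR cultures at day 7, 55 members were higher and 7 lower in dEx1A than in WT cells (all genes 26.2% and 28.7%; median difference 0.70 beside -0.04 for all genes). BCR cultures at day 7 had 67 members higher and 3 lower (all genes 25.8% and 25%; median 1.02 beside 0.00). Both comparisons cross the depth sets, sex and age. Among the 42 GC-rich members 38 were higher and 1 lower in TLR, with a median of 1.60, and 39 higher and 1 lower in BCR, with a median of 1.52. The 41 GC-poor members gave 17 higher and 6 lower in TLR, with a median of 0.21, and 28 higher and 2 lower in BCR, with a median of 0.63. With GC content and length corrected, 60 were higher and 8 lower in TLR (median 0.69) and 70 higher and 4 lower in BCR (median 0.83). LPS cultures at day 7, where both genotypes share depth set, sex and age, had 1 member higher and 1 lower (all genes 3.3% and 3.78%; median 0.14). The members' share of reads outside immunoglobulin genes was 1.01 ± 0.114% in dEx1A and 0.547 ± 0.0406% in WT TLR cultures, 1.17 ± 0.263% in dEx1A and 0.609 ± 0.05% in WT BCR cultures, and 1.07 ± 0.124% in dEx1A and 0.989 ± 0.0289% in WT LPS cultures at day 7 (SD, n = 3 each). Feeder markers stood at 282 to 428 RPM in dEx1A BCR cultures at day 7, against 20.5 to 25.8 in WT, and macrophage markers at 274 to 2417 in dEx1A against 199 to 501 in WT. In TLR cultures feeder markers stood at 23.4 to 26.2 RPM in dEx1A against 2.27 to 6.35 in WT, and macrophage markers at 264 to 358 in dEx1A against 96.8 to 168 in WT. Plasma cell markers (7 genes, none at 0) summed to 17386 to 18796 RPM in dEx1A and 38086 to 54514 in WT TLR cultures, and to 3935 to 6417 in dEx1A and 21479 to 25799 in WT BCR cultures. The part of these cells in the TLR and BCR results was not tested.

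At day 4 the members called between genotypes made up shares near or below those of all genes in each culture. BCR cultures at day 4 had 0 members called (all genes 1.19% higher and 0.669% lower), in limma as in limma-voom, with 7 and 6 at an unadjusted p below 0.05. TLR cultures at day 4 had 4 higher and 4 lower (all genes 4.08% and 3.14%). That count was 0 without WT sample 1, WT sample 2 or dEx1A sample 3, 2 without dEx1A sample 1, 15 without dEx1A sample 2 and 17 without WT sample 3. In these TLR cultures the GC-rich members gave 0 higher and 3 lower (median -0.41). The GC-poor members gave 4 higher and 1 lower (median 0.26). GC offsets were -1.92 to -0.4 in dEx1A and -1.49 to 0.01 in WT samples, and their part in the result was not tested. LPS cultures at day 4, across the depth sets, had 11 higher and 6 lower (all genes 12.6% and 11.8%; median -0.06), and 9, 10 or 8 in all without WT sample 1, WT sample 2 or dEx1A sample 1. There the GC-rich members gave 2 higher and 5 lower (median -0.38) and the GC-poor members 9 higher and 1 lower (median 0.19). The change from day 4 to day 7 was larger in dEx1A than in WT cells for 48 members and smaller for 10 in TLR cultures (all genes 24.3% and 25.1%) and for 48 and 4 in BCR cultures (16.4% and 17.5%), but for 2 and 0 in LPS cultures (3.3% and 2.18%). The dEx1A steps in TLR and BCR also cross the depth sets. In TLR they were larger for 38 and smaller for 1 of the GC-rich members (median 2.21), and larger for 10 and smaller for 9 of the GC-poor members (median -0.11). In BCR the counts were 33 and 1 among GC-rich (median 1.44) and 15 and 3 among GC-poor members (median 0.40). In BCR the 52 calls were 32 without WT day 7 sample 1, 31 without dEx1A day 4 sample 3 and 24 without dEx1A day 7 sample 1.

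**Figure D3:**
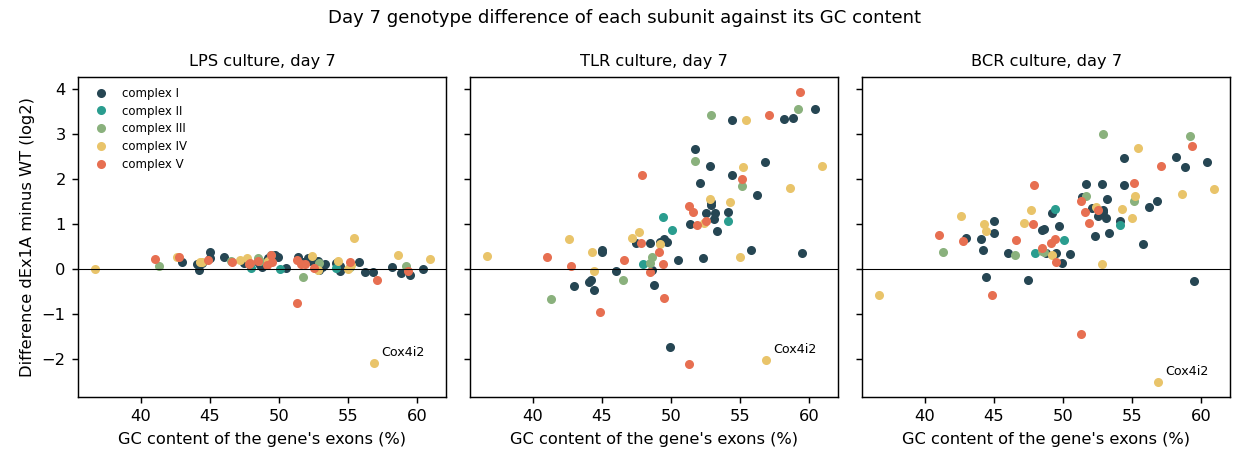
Difference between dEx1A and WT cells at day 7 (vertical axis, log2 units) against the GC content of the member's exons (horizontal axis, percent), 1 panel per culture and 1 point per member, 83 in each. Differences are larger for GC-rich members in TLR (Spearman's rho 0.69) and BCR cultures (0.57) and stay nearer to 0 in LPS cultures (-0.38), while Cox4i2 is the labelled point at -2.09 in LPS, -2.02 in TLR and -2.51 in BCR; members share their libraries, so rho is a description.

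Complex I has 37 members, which did not behave alike. In WT cultures at day 4, 18 members were higher than at day 0 and 0 lower in TLR (median difference 0.49, all genes 24.9% and 23.5%), 18 and 0 in BCR (0.72, all genes 26.1% and 24.5%) and 35 and 0 in LPS (1.55, all genes 27.3% and 30.8%). From day 4 to day 7, 5 were higher and 5 lower in TLR (all genes 17.7% and 18.6%), and 1 higher and 9 lower in BCR cultures (all genes 15.3% and 15.2%). At day 7, 25 were higher and 2 lower in dEx1A than in WT TLR cultures (median 0.68, all genes 26.2% and 28.7%), and 29 higher and 0 lower in BCR cultures (1.08, all genes 25.8% and 25%). LPS cultures at day 7 had no complex I member called between genotypes (all genes 3.3% and 3.78%), where limma found none at an unadjusted p below 0.05 and limma-voom called none.

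Ndufa1 (chrX:37187588-37191163, minus strand, no overlapping gene), a small accessory subunit of the membrane arm that is needed to assemble the complex, was higher at day 4 than at day 0 and higher again at day 7 in WT TLR and BCR cultures. Its log2 values were 7.22, 7.41 and 7.58 in WT cells at day 0. In WT TLR cultures they were 8.74, 8.80 and 8.44 at day 4, 10.79, 10.88 and 10.63 at day 7, and 11.41, 11.05 and 11.40 at day 10, and no day overlapped the one before it. In WT BCR cultures they were 8.70, 8.64 and 8.63 at day 4, 9.85, 10.02 and 10.48 at day 7, and 10.67, 10.08 and 11.38 at day 10, where the last 2 days overlap. The difference between day 7 and day 4 was 2.11 in TLR (adjusted p = 1.99e-06) and 1.46 in BCR (adjusted p = 0.000135), while the median over all members was -0.17 and -0.26. The last step, from day 7 to day 10, did not pass (0.52, adjusted p = 0.211 in TLR, and 0.59, adjusted p = 0.104 in BCR). Day 10 stood above day 0 by 3.88 in TLR (adjusted p = 3.38e-10) and 3.31 in BCR (adjusted p = 3.51e-09). In LPS cultures at day 4, dEx1A samples were at 8.85, 9.08 and 9.22 and WT samples at 10.01, 9.98 and 10.16, and the groups did not overlap (adjusted p = 0.00108). By day 7 they overlapped, at 10.37, 10.85 and 10.72 in dEx1A and 10.20, 10.55 and 10.80 in WT. The change over these days differed between genotypes by 1.13 (SE 0.31, adjusted p = 0.0268), a call that was lost without any 1 of 5 of the 12 libraries, with an adjusted p of up to 0.103.

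Ndufa4 (chr6:11900292-11907497, minus strand), a subunit now placed in cytochrome c oxidase, took different courses in TLR and BCR cultures. WT cells were at 9.37, 9.83 and 9.85 at day 0. WT TLR cultures were at 10.80, 10.71 and 10.90 at day 4, 11.90, 11.64 and 11.60 at day 7, and 11.25, 11.46 and 11.67 at day 10. WT BCR cultures were at 11.50, 11.15 and 11.65 at day 4, 11.15, 11.15 and 10.98 at day 7, and 11.32, 11.31 and 11.55 at day 10. TLR samples were thus below all BCR samples at day 4 and above them at day 7. The step from day 4 to day 7 was larger in TLR by 1.25 (SE 0.23, adjusted p = 0.00592) and kept its call with any 1 library left out. The differences at single days were smaller, -0.63 at day 4 and 0.62 at day 7, and were lost without any 1 of 4 libraries at day 4 (adjusted p up to 0.102) and of 6 at day 7 (up to 0.149). Its isoform Ndufa4l2, known to be induced by hypoxia, stayed at low read numbers, at 3.04 (no reads) in all day 0 samples and 3.53, 3.90 and 3.98 in WT LPS day 4 samples.

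The catalytic core subunits did not move as one. Ndufv1, which binds NADH and FMN, was at 10.61, 10.67 and 10.78 in WT LPS day 4 samples and 9.25, 8.96 and 9.21 at day 0 (1.55, adjusted p = 0.00216). Its values in WT TLR day 4 samples, 9.50, 9.75 and 8.10, lay on both sides of day 0. Ndufs1, the iron-sulphur subunit next in the electron path, was at 10.87, 10.92 and 11.00 in WT LPS day 4 samples and 10.85, 10.94 and 10.80 at day 0 (0.07, not passed). At day 7 of TLR cultures both passed in opposite directions. Ndufv1 was at 10.29, 10.25 and 10.66 in dEx1A and 8.20, 9.31 and 8.75 in WT samples (1.65, adjusted p = 0.00141), and Ndufs1 at 10.47, 10.57 and 10.38 in dEx1A and 11.13, 10.74 and 10.92 in WT samples (-0.46, adjusted p = 0.00409). In BCR cultures at day 7 Ndufv1 was higher in dEx1A by 1.39 (adjusted p = 0.00637), which was lost without WT sample 1 or dEx1A sample 1 (adjusted p up to 0.0734). Ndufv1 is among the GC-rich members (56.2%) and Ndufs1 among the GC-poor ones (44.4%).

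Accessory subunits gave the extremes. Ndufa13, also known as Grim19, whose exons are 60.4% GC and which overlaps Yjefn3 on the same strand, was at 11.09, 10.99 and 11.65 in dEx1A and 6.85, 8.71 and 7.53 in WT TLR cultures at day 7 (3.55, SE 0.64, adjusted p = 3.11e-05). Ndufb4, a membrane-arm subunit at 49.9% GC, went the other way, at 6.58, 5.96 and 5.88 in dEx1A and 8.04, 7.49 and 8.07 in WT samples (-1.73, SE 0.25, adjusted p = 1.95e-06). Ndufa12, which sits at the base of the matrix arm, showed the rise and return of many members: 7.77, 8.05 and 8.25 in WT cells at day 0, 9.76, 9.61 and 9.56 in WT BCR cultures at day 4, and 8.54, 8.67 and 8.58 at day 7 (day 7 less day 4, -1.05, adjusted p = 3.56e-05). In dEx1A BCR cultures at day 7 it was at 10.63, 10.02 and 9.93, above every WT sample of that day (1.60, adjusted p = 1.06e-09).

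**Figure D4:**
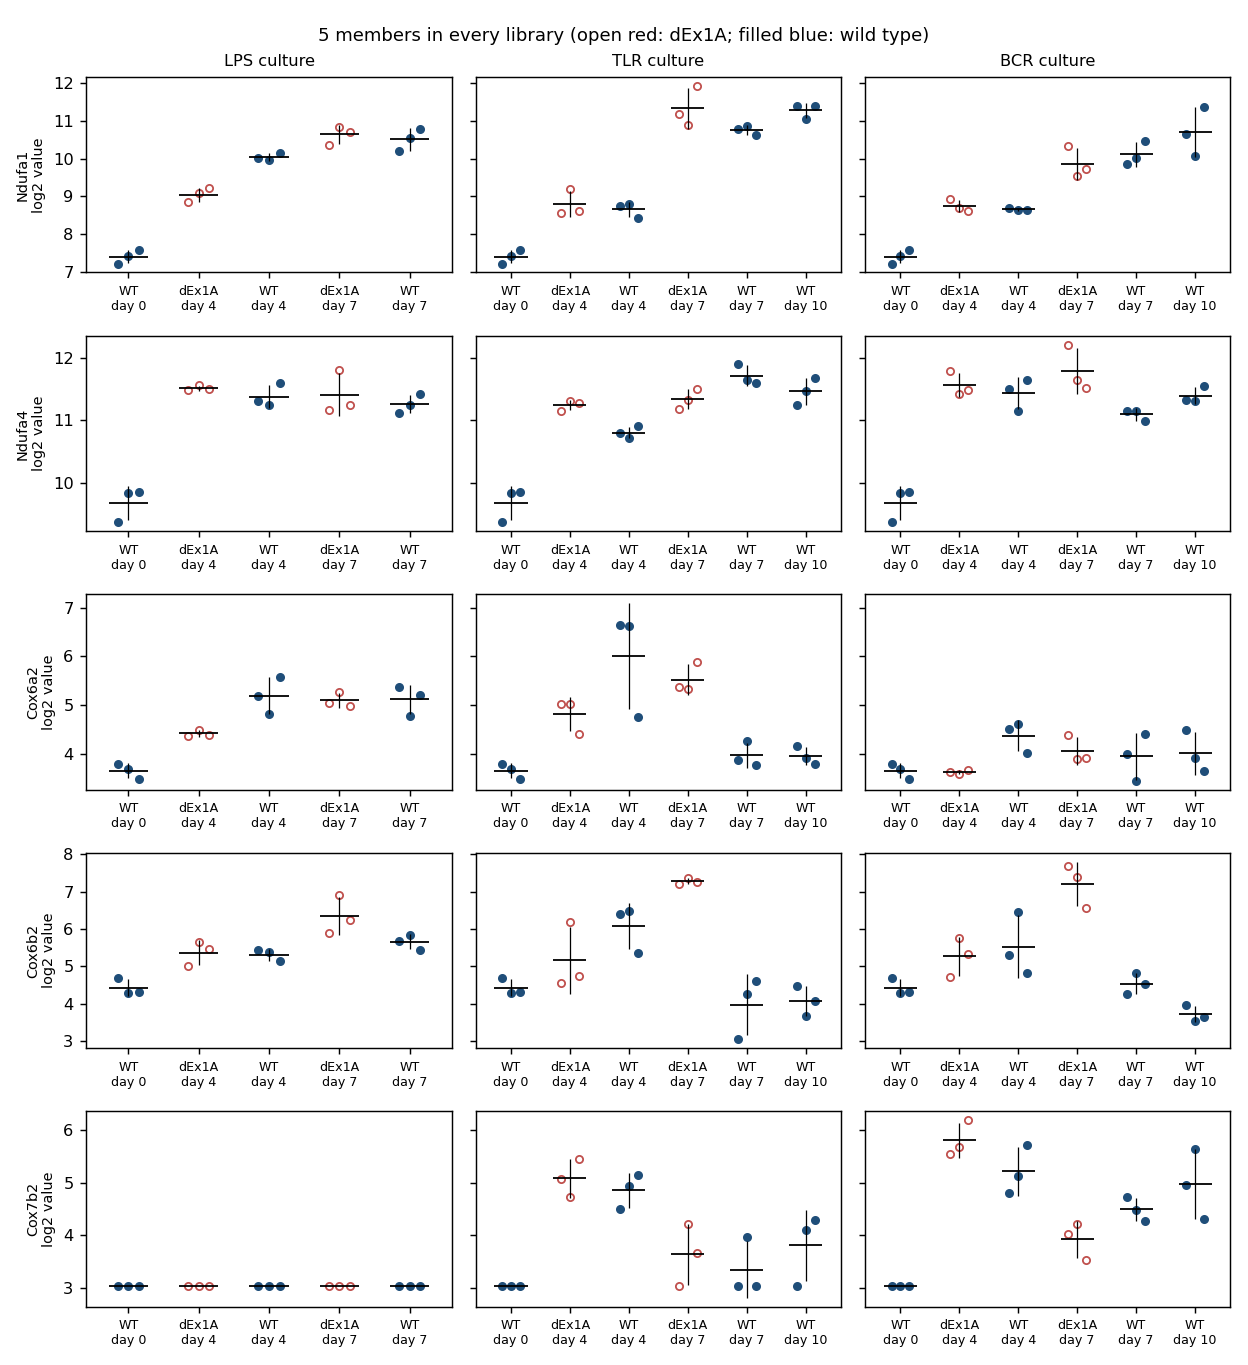
Log2 values of Ndufa1, Ndufa4, Cox6a2, Cox6b2 and Cox7b2 in every library, by culture (columns) and group (horizontal axis). Open red points are dEx1A and filled blue points WT libraries, horizontal lines are means and vertical lines ± SD of 3. Ndufa1 is higher at day 7 than at day 4 in WT TLR and BCR cultures, while Cox6a2 and Cox6b2 peak at day 4 in WT TLR cultures (6.65, 6.62 and 4.75 for Cox6a2) and Cox7b2 appears in TLR and BCR cultures and stays at 3.04, no reads, in LPS cultures.

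Complex II has no mitochondrial subunit, and its 4 members did not move alike. Sdha, the flavoprotein that oxidises succinate, was at similar levels at days 0 and 4: 12.01, 12.01 and 12.00 in WT cells at day 0, 12.03 in each WT LPS day 4 sample, 11.91, 11.91 and 11.81 in WT TLR and 12.14, 12.10 and 12.02 in WT BCR day 4 samples. None of its day 4 differences (0.02, -0.13 and 0.08) passed. In WT BCR cultures it was lower at day 7 than at day 4 (-0.40, adjusted p = 0.0245), which was lost without day 4 sample 1 or 2 or day 7 sample 3 (adjusted p up to 0.0951). It was higher at day 10, at 12.45, 12.30 and 11.84, than at day 7 (0.51, adjusted p = 0.0113), which was lost without day 10 sample 1 (adjusted p = 0.0715). The membrane anchors Sdhc and Sdhd and the iron-sulphur subunit Sdhb were higher than at day 0 in WT LPS cultures, by 1.37, 1.47 and 1.62. In TLR and BCR cultures Sdhc and Sdhd passed (0.83 and 0.86 in TLR, 0.72 and 1.29 in BCR), and Sdhb had 0.50 (adjusted p = 0.0537) and 0.47 (adjusted p = 0.0629).

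Sdhd (chr9:50596357-50603812, minus strand) was higher at day 4 than at day 0 and lower at day 7 than at day 4 in WT cultures. Its log2 values were 9.64, 9.76 and 9.81 at day 0 in WT cells, 11.09, 11.04 and 10.96 in WT BCR cultures at day 4, 10.18, 10.15 and 9.97 at day 7, and 10.89, 10.82 and 10.06 at day 10. In WT TLR cultures they were 10.61, 10.66 and 10.53 at day 4, 10.13, 10.03 and 9.90 at day 7, and 9.94, 10.21 and 10.23 at day 10. Day 7 was below day 4 by values of -0.93 in BCR, -0.58 in TLR and -0.41 in LPS cultures, and in each the 2 days do not overlap. The LPS call was lost without day 4 sample 3 (adjusted p = 0.0644). At day 7 dEx1A samples were above all WT samples in each culture: 11.11, 11.07 and 11.37 in dEx1A TLR (1.16, adjusted p = 1.60e-10), 11.56, 11.35 and 11.38 in dEx1A BCR (1.33, adjusted p = 5.16e-12), and 11.09, 11.20 and 11.07 in dEx1A LPS cultures, where WT samples were at 10.82, 10.77 and 10.80 (0.32, adjusted p = 0.0411). The LPS call was lost without any 1 library (adjusted p up to 0.161). Sdha also passed between genotypes in BCR cultures, at 12.02, 12.12 and 12.02 in dEx1A and 11.71, 11.76 and 11.58 in WT samples (0.37, adjusted p = 0.000441), and had a difference of 0.12 in TLR cultures (adjusted p = 0.24). Sdhb and Sdhc were higher in dEx1A by 1.07 and 0.86 in TLR and by 0.99 and 0.65 in BCR cultures at day 7.

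Complex III members rose unevenly at day 4. In WT LPS cultures all 8 were higher than at day 0 (median difference 1.19), against 3 in TLR (0.49) and 4 in BCR cultures (0.72), with 0 lower. Over all genes, 27.3% were higher and 30.8% lower in LPS, 24.9% and 23.5% in TLR, and 26.1% and 24.5% in BCR. The largest differences belonged to 3 small accessory subunits. Uqcr11 (chr10:80402997-80406830, minus strand, 59.2% GC) was at 9.78, 9.97 and 10.12 in WT LPS day 4 samples and 5.83, 5.62 and 6.37 at day 0 (4.02, SE 0.67, adjusted p = 5.86e-06). Uqcr10 was at 10.47, 10.45 and 10.69 in WT LPS day 4 samples and 7.21, 7.16 and 7.45 at day 0 (3.26). In WT TLR day 4 samples Uqcr10 was at 8.51, 8.86 and 7.27, and its lowest sample lay inside the day 0 range (0.94, adjusted p = 0.161). That lowest sample, sample 3, had a GC offset of -1.49. The core protein Uqcrc1 was at 11.65, 11.59 and 11.68 in WT LPS day 4 samples and 10.39, 10.23 and 10.57 at day 0 (1.24, adjusted p = 0.00175), and the other core protein, Uqcrc2, had 0.38 in LPS, 0.77 in TLR and 0.81 in BCR cultures. Uqcrh, the hinge protein, had the highest level per kilobase of transcript of complex III in every group but dEx1A TLR day 4 (3895 for Uqcrh and 3899 for Uqcrb, in reads over size factor per kilobase).

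Uqcrq (chr11:53427922-53430831, minus strand), a ubiquinone-binding accessory subunit, differed between genotypes early in LPS cultures. At day 4 it was at 8.46, 9.22 and 8.89 in dEx1A and 10.98, 10.81 and 11.10 in WT samples (-2.11, SE 0.31, adjusted p = 6.01e-06), against 7.11, 7.24 and 7.40 in WT cells at day 0. At day 7 the genotypes overlapped, at 10.33, 11.31 and 10.89 in dEx1A and 10.75, 10.95 and 11.33 in WT samples (-0.17, not passed). The change over these days was larger in dEx1A by 1.94 (SE 0.44, adjusted p = 0.00646). The day 4 groups lie in different depth sets, and the GC content of Uqcrq is 51.7%. Its call stood with the correction for GC content and length, which does not adjust for depth. The part of depth and GC offset in the Uqcrq difference was not tested. In TLR and BCR cultures at day 7 Uqcrq was higher in dEx1A: 11.26, 10.98 and 12.14 in dEx1A and 8.92, 9.14 and 9.10 in WT TLR samples (2.41), and 11.24, 9.43 and 10.11 in dEx1A and 8.19, 8.64 and 9.07 in WT BCR samples (1.63).

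At day 7, 5 complex III members were higher and 1 lower in dEx1A than in WT TLR cultures (median 1.06, all genes 26.2% and 28.7%), and 7 higher and 0 lower in BCR cultures (0.96, all genes 25.8% and 25%). Uqcr11 was at 9.42, 9.43 and 10.20 in dEx1A and 5.60, 6.78 and 6.03 in WT TLR samples (3.55), and at 10.83, 9.14 and 9.68 in dEx1A and 5.56, 7.11 and 8.09 in WT BCR samples (2.96, adjusted p = 0.000475). The WT BCR samples thus spread over more than the distance that separates the nearest samples of the genotypes. Uqcrc1 was at 11.38, 11.36 and 11.93 in dEx1A and 9.15, 10.13 and 9.84 in WT TLR samples (1.85, adjusted p = 2.83e-05). The 1 lower member in TLR was Uqcrb, at 10.26, 10.24 and 9.62 in dEx1A and 10.93, 10.45 and 10.71 in WT samples (-0.66, adjusted p = 0.0175). Uqcrfs1, the Rieske iron-sulphur protein, was, with Ndufa4, a member whose day 4 to day 7 step differed between WT TLR and BCR cultures. It was at 10.15, 10.14 and 10.13 at day 4 and 10.73, 10.67 and 10.54 at day 7 in TLR, and at 10.57, 10.44 and 10.49 at day 4 and 10.25, 10.39 and 10.15 at day 7 in BCR cultures (0.74, SE 0.16, adjusted p = 0.0167). That call was lost without TLR day 4 sample 1, TLR day 7 sample 1 or BCR day 4 sample 1 (adjusted p up to 0.0633).

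Complex IV contains most of the members with tissue-specific isoforms. In WT cultures at day 4, 11 of 16 members were higher than at day 0 in TLR (median difference 0.83, all genes 24.9%), 11 higher and 1 lower in BCR (0.86, all genes 26.1% and 24.5%), and 13 higher and 0 lower in LPS (1.51, all genes 27.3% and 30.8%). From day 4 to day 7, 1 was higher and 5 lower in TLR (all genes 17.7% and 18.6%) and 2 higher and 3 lower in BCR cultures (all genes 15.3% and 15.2%). At day 7, 12 were higher and 1 lower in dEx1A than in WT cells both in TLR (median 0.76, all genes 26.2% and 28.7%) and in BCR cultures (1.16, all genes 25.8% and 25%), and the 1 lower was Cox4i2 in both.

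Cox4i2 (chr2:152754173-152765037, plus strand, no overlapping gene) encodes the alternative isoform of the regulatory subunit 4, best known from lung. It was not read in resting B cells and appeared with plasma cell culture in WT cells. Recovered reads were 0 in each WT sample at day 0, 24, 14 and 21 in WT LPS at day 4, 26, 29 and 23 in WT LPS at day 7, 10, 52 and 17 in WT TLR and 24, 64 and 86 in WT BCR at day 7, and 198, 71 and 55 in TLR and 409, 118 and 259 in BCR at day 10. At day 4, WT TLR samples held 1, 0 and 0 and WT BCR samples 0, 1 and 0 reads. Setting the summed reads against a floor of 3 reads over the group, WT LPS day 4 was at least 23.5-fold, TLR day 10 at least 90.9-fold and BCR day 10 at least 218-fold above day 0 in RPM. On the log2 scale, where a count of 0 is 3.04, day 7 was above day 4 by 2.08 in TLR (adjusted p = 0.00143) and 2.60 in BCR cultures (adjusted p = 0.000236). Day 10 was above day 7 by 2.26 (adjusted p = 0.00428) and 2.36 (adjusted p = 0.00195), although a fit on those 2 groups alone gave adjusted p of 0.083 in TLR and 0.0936 in BCR.

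In dEx1A cells Cox4i2 was almost unread. Recovered reads were 0, 0 and 0 in dEx1A and 24, 14 and 21 in WT LPS cultures at day 4, which is at least 30.6-fold lower in dEx1A (log2 difference -2.08, SE 0.25, adjusted p = 1.66e-07). At day 7 they were 1, 1 and 1 in dEx1A and 26, 29 and 23 in WT LPS cultures, 27.4-fold lower with an exact 95% counting interval of 9.02 to 136 (-2.09, adjusted p = 2.21e-07). TLR cultures at day 7 had 1, 0 and 0 reads in dEx1A and 10, 52 and 17 in WT (51.7-fold lower, interval 9.02 to 2069; -2.02, adjusted p = 1.05e-07). BCR cultures at day 7 had 2, 0 and 0 reads in dEx1A and 24, 64 and 86 in WT (53.6-fold lower, interval 14.6 to 446; -2.51, adjusted p = 1.32e-09). No dEx1A sample reached the lowest WT sample in any of these 4 comparisons, and each call held with any 1 library left out. The LPS day 7 comparison lies within 1 depth set, sex and age. The GC content of Cox4i2 is 56.9%. The LPS day 4 comparison crosses the depth sets, and the TLR and BCR comparisons cross the depth sets, sex and age. The part of these in the Cox4i2 result was not tested. The summed plasma cell markers were also lower in dEx1A in TLR and BCR cultures at day 7, by the values given above. In LPS cultures they summed to 1709 to 2951 in dEx1A and 7990 to 8336 in WT at day 4, while at day 7 the sums overlapped, at 14678 to 18144 in dEx1A and 16228 to 21243 in WT. The part of plasma cell content in the Cox4i2 result was not tested.

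**Figure D5:**
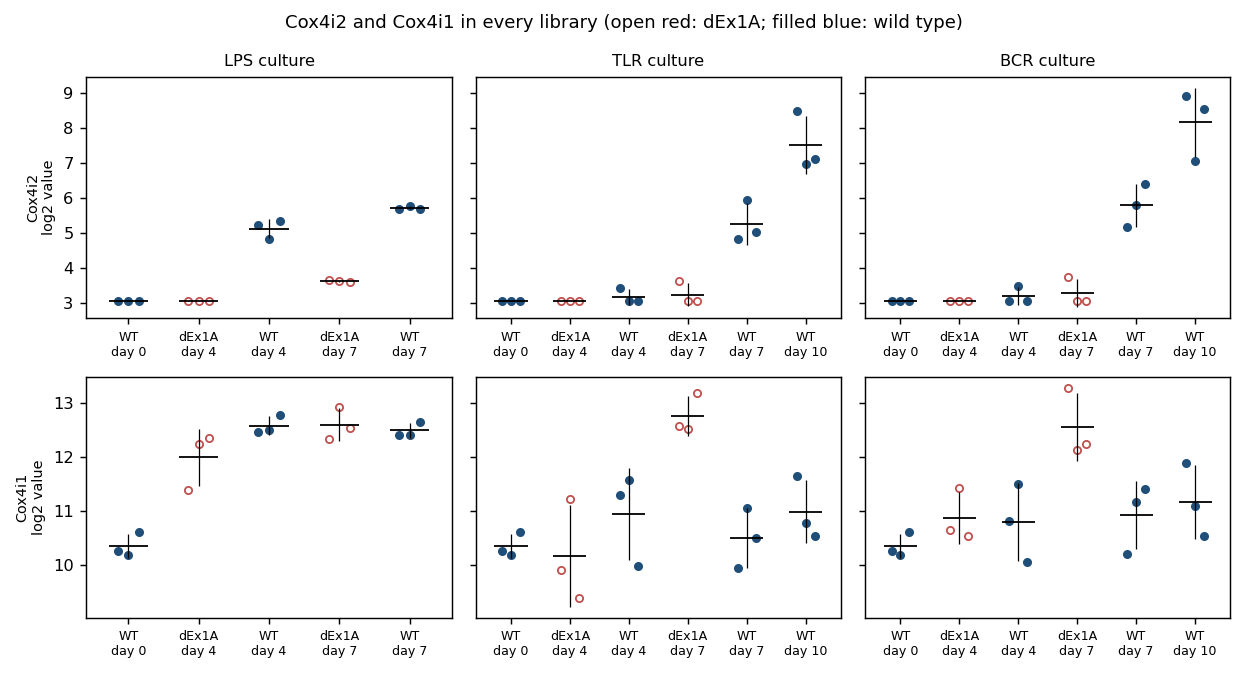
Log2 values of Cox4i2 (top) and Cox4i1 (bottom) in every library of LPS, TLR and BCR cultures, with day 0 repeated in each panel. Open red points are dEx1A and filled blue points WT libraries, horizontal lines are means and vertical lines ± SD of 3. Cox4i2 lies at 3.04, no reads, at day 0 and near it in all dEx1A groups, while Cox4i1 is higher in dEx1A than in WT cells at day 7 of TLR and BCR cultures.

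The ubiquitous isoform Cox4i1, whose row overlaps Gm20388 on the same strand, was higher in dEx1A at day 7 of TLR and BCR cultures, opposite to Cox4i2. It was at 12.57, 12.52 and 13.18 in dEx1A and 9.95, 11.06 and 10.49 in WT TLR cultures at day 7 (2.26, SE 0.43, adjusted p = 6.25e-05), and at 13.28, 12.13 and 12.24 in dEx1A and 10.21, 11.17 and 11.40 in WT BCR cultures (1.62, adjusted p = 0.00222). In LPS cultures the difference was -0.58 at day 4 (adjusted p = 0.351) and 0.10 at day 7 (adjusted p = 0.999). At day 4 it was above day 0 in WT LPS cultures, at 12.45, 12.49 and 12.77 against 10.26, 10.19 and 10.60 (2.22, adjusted p = 4.99e-05), and had differences of 0.60 in TLR and 0.44 in BCR cultures that did not pass. Even where Cox4i2 was highest, in BCR day 10 sample 1, its value of 8.89 was below every Cox4i1 value.

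Subunit 6 has muscle and testis isoforms, and both were read at low levels. Cox6a2, the heart and muscle isoform (chr7:128205435-128206387, minus strand, overlapped by Itgad on the other strand), held 151, 157 and 23 reads in WT TLR cultures at day 4. On the log2 scale these were 6.65, 6.62 and 4.75, against 3.79, 3.68 and 3.48 at day 0 (2.36, adjusted p = 7.53e-05), and they fell to 3.87, 4.25 and 3.77 at day 7 (-2.04, adjusted p = 0.000491). WT BCR cultures of day 4 were at 4.50, 4.60 and 4.01, and the difference between TLR and BCR (1.64, adjusted p = 0.0133) was lost without TLR sample 1, TLR sample 2 or BCR sample 3 (adjusted p up to 0.0968). Cox6b2, the testis isoform (chr7:4751792-4753094, minus strand), followed the same course in WT TLR cultures, with 4.68, 4.29 and 4.31 at day 0, 6.39, 6.48 and 5.36 at day 4, and 3.04, 4.25 and 4.60 at day 7. At day 7 it was at 7.22, 7.38 and 7.25 in dEx1A TLR cultures (102, 106 and 90 reads in dEx1A and 0, 7 and 10 in WT; 3.32, adjusted p = 1.77e-07) and at 7.70, 7.39 and 6.56 in dEx1A and 4.26, 4.81 and 4.53 in WT BCR cultures (2.68, adjusted p = 4.14e-06). The ubiquitous partners Cox6a1 and Cox6b1 were far above them, with 11.09, 11.00 and 11.00 and with 11.23, 11.25 and 11.42 in WT LPS day 4 samples.

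Cox7b2, another testis isoform (chr5:71442824-71548205, minus strand), had no read at day 0 or in any LPS culture of either genotype. At day 4 it held 25, 21 and 36 reads in dEx1A and 16, 31 and 37 in WT TLR cultures, and 49, 62 and 76 in dEx1A and 18, 27 and 68 in WT BCR cultures. The WT sums were at least 20.1-fold (TLR) and 32.8-fold (BCR) above day 0 against a floor of 3 reads over the group. These are the cultures that had held feeders: feeder markers summed to 93 to 210 RPM in WT TLR and 148 to 309 in WT BCR day 4 cultures and to 2.12 to 7.04 at day 0. BCR cultures at day 7 held 4, 6 and 1 Cox7b2 reads beside 282 to 428 RPM of feeder markers in dEx1A, and 14, 14 and 8 reads beside 20.5 to 25.8 RPM in WT. The part of feeder RNA in the Cox7b2 reads was not tested. Cox7a2l, which helps join complexes III and IV, was the 1 member that fell in BCR cultures at day 4, at 11.05, 11.07 and 10.84 in WT BCR day 4 samples and 11.42, 11.51 and 11.66 at day 0 (-0.54, adjusted p = 0.00186). WT TLR day 4 samples were at 11.71, 11.60 and 11.44, above BCR (0.60, adjusted p = 0.00685), which was lost without TLR sample 1 (adjusted p = 0.0508). Cox7a2, Cox7b, Cox6c, Cox5a and Cox6b1 rose in all 3 WT cultures at day 4, by 0.63 to 1.91, and Cox7a1, the muscle isoform, passed in LPS at 0.50 and had -0.28 with the correction for GC content and length.

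In complex V, Atp5b, the catalytic beta subunit (chr10:128083273-128090391, plus strand, hosting Mir677 and Snord59a), had the highest level of complex V per kilobase of transcript in every group, 11334 reads over size factor per kilobase in WT LPS day 4 and 4306 at day 0. Its log2 values were 12.90, 13 and 13.13 at day 0 in WT cells, 14.16, 14.23 and 13.95 in WT TLR cultures at day 4, 13.17, 13.30 and 13.28 at day 7, and 13.30, 13.41 and 13.32 at day 10. In WT BCR cultures they were 14.47, 14.49 and 14.29 at day 4, 13.31, 13.52 and 13.30 at day 7, and 13.93, 13.85 and 13.31 at day 10. Day 4 was above day 0 by 1.10 in TLR and 1.41 in BCR, and day 7 was below day 4, with -0.86 in TLR and -1.04 in BCR (adjusted p = 3.09e-05); all days 4 and 7 lie apart. WT LPS cultures were at 14.38, 14.36 and 14.48 at day 4 (1.40 above day 0, adjusted p = 2.06e-11) and 14.10, 14.00 and 14.00 at day 7 (-0.37, adjusted p = 0.0489, lost without any 1 library). At day 7 it was higher in dEx1A, at 13.76, 13.75 and 14.01 in TLR (0.59, adjusted p = 0.000145) and 14.52, 14.33 and 14.27 in BCR cultures (1.00, adjusted p = 6.50e-08), where no dEx1A sample overlapped a WT sample.

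Of the 18 complex V members, 8 were higher at day 4 than at day 0 in TLR, 11 in BCR and 15 in LPS cultures, with 1 lower in LPS. Over all genes, 24.9% were higher in TLR, 26.1% in BCR and 27.3% in LPS, where 30.8% were lower. The c-ring, which turns with the proton flow, is encoded by 3 genes for the same mature protein. Atp5g3 rose in each culture, by 0.93 in TLR, 1.37 in BCR and 1.40 in LPS, and Atp5g1 and Atp5g2 passed in LPS, with 3.02 and 2.29. Atp5g2 in WT TLR day 4 samples ran over 9.39, 10.04 and 7.64, with 8.61, 8.19 and 8.74 at day 0, so the groups overlap. Atp5d, the delta subunit of the central stalk (59.3% GC, overlapped by Cbarp on the other strand), was at 11.39, 11.32 and 11.32 in WT LPS day 4 samples and 8.60, 8.27 and 8.93 at day 0 (2.74, adjusted p = 0.00166). In WT TLR day 4 samples it was at 9.17, 9.67 and 6.84. At day 7 it was at 11.47, 11.17 and 12.04 in dEx1A and 6.81, 8.49 and 7.55 in WT TLR cultures (3.94, SE 0.72, adjusted p = 4.07e-05), the largest genotype difference of any member in these comparisons. Atp5s, a factor linked to ATP synthase coupling (chr12:69724950-69744660, plus strand, 44.9% GC), ran against the set. It was at 6.43, 6.42 and 6.60 in WT LPS day 4 samples and 7.40, 7.53 and 7.28 at day 0 (-0.92, adjusted p = 2.75e-05), and at 6.47, 6.46 and 6.25 in dEx1A and 7.45, 7.16 and 7.39 in WT TLR cultures at day 7 (-0.94, adjusted p = 3.39e-05). In BCR cultures at day 7 its difference was -0.58, lost without WT sample 1 (adjusted p = 0.0664). Between genotypes, 10 complex V members were higher and 3 lower in TLR (median 0.49, all genes 26.2% and 28.7%) and 15 higher and 2 lower in BCR cultures at day 7 (0.88, all genes 25.8% and 25%).

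Carriers, TCA cycle enzymes, assembly factors and regulators were followed beside the subunits. Over all genes, 24.9% were higher and 23.5% lower at day 4 than at day 0 in WT TLR cultures. These shares were 26.1% and 24.5% in WT BCR and 27.3% and 30.8% in WT LPS cultures. Of 23 carriers and TCA cycle enzymes, 9 were higher and 1 lower at day 4 than at day 0 in WT TLR (median difference 0.55), 15 and 0 in BCR (0.75) and 14 and 1 in LPS cultures (0.42). Among them Slc25a4, an ADP/ATP carrier, rose by 1.80 in TLR and 1.98 in LPS, and Cycs, cytochrome c, by 2.20 in BCR cultures. Of 19 assembly factors for complex IV, 3 were higher and 0 lower in TLR, 7 and 0 in BCR and 10 and 3 in LPS; the copper chaperone Sco1 rose by 2.27 in TLR and 1.69 in BCR. Of 17 assembly factors for complex I, 3 were higher and 2 lower in TLR, 6 and 1 in BCR and 7 and 1 in LPS. Ndufaf2 rose by 1.69 in TLR and 2.18 in BCR, and Dmac2 fell in TLR, BCR and LPS, with -2.49, -2.48 and -1.58. The 6 factors of complex III had 2, 1 and 3 higher and 0, 0 and 1 lower in TLR, BCR and LPS, the 4 of complex II none higher and 1, 1 and 2 lower, and the 3 of complex V 1 higher each. Of 18 transcriptional regulators of these genes, 1 was higher and 6 lower in TLR (median -0.35), 3 and 5 in BCR and 3 and 5 in LPS cultures. Ppargc1a, which encodes the coactivator PGC-1α, fell in all 3, with -1.68, -1.84 and -2.15, and Tfb1m, a mitochondrial methyltransferase, rose by 1.16 and 1.21 in TLR and BCR.

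Subunits outside the symbol rule, most of them encoded by mitochondrial DNA, were called at day 4 against day 0 at shares below those of all genes. Of 16 tested subunit genes outside the symbol rule (13 mitochondrial ones, Ndufab1, Cyc1 and Usmg5), 3 were higher and 0 lower at day 4 than at day 0 in WT TLR (median difference 0.05), 4 and 0 in BCR (0.36), and 2 and 4 in LPS cultures (-0.72). The shares of all genes higher and lower were 24.9% and 23.5% in TLR, 26.1% and 24.5% in BCR, and 27.3% and 30.8% in LPS. In LPS, mt-Nd4 fell by 1.05 and Cyc1, the nuclear cytochrome c1 of complex III, rose by 1.66. The mitochondrial subunits made up 2.14 ± 0.12% of reads in WT LPS, 4.26 ± 1.15% in WT TLR and 4.97 ± 1.18% in WT BCR day 4 cultures, and 4.01 ± 0.357% at day 0 (SD, n = 3 each). At day 7, 1 of the 16 was higher and 8 lower in dEx1A than in WT TLR cultures (median -0.98, all genes 26.2% and 28.7%), and 2 higher and 4 lower in BCR cultures (-0.45, all genes 25.8% and 25%). There Cyc1 was higher in dEx1A by 2.02 in TLR and 1.68 in BCR, and mt-Atp6 had -2.50 in TLR. As shares of reads, the mitochondrial subunits held 1.68 ± 0.694% in dEx1A and 2.94 ± 0.699% in WT TLR cultures and 2.83 ± 1.26% in dEx1A and 3.69 ± 1.44% in WT BCR cultures at day 7 (SD, n = 3 each). The LPS comparison with day 0 and both day 7 genotype comparisons cross the depth sets. The share was 0.965% in dEx1A TLR day 7 sample 3 (GC offset 1.68) and 1.38% in dEx1A BCR day 7 sample 1 (1.67). It was 6.64% in dEx1A TLR day 4 sample 3 (-1.92). The part of depth and GC offset in these shares and differences was not tested.

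Between genotypes at day 7, carriers and TCA cycle enzymes had 12 higher and 7 lower in dEx1A TLR cultures (median 0.36) and 14 higher and 0 lower in BCR cultures (0.41), with Mdh2, malate dehydrogenase, higher by 1.88 and 1.77. Over all genes, 26.2% were higher and 28.7% lower in TLR, 25.8% and 25% in BCR, and 3.3% and 3.78% in LPS cultures. Complex IV assembly factors had 7 higher and 2 lower in TLR and 8 and 1 in BCR, led by Sco2, another copper chaperone, at 3.15 and 1.73. Complex I assembly factors had 4 and 2 in TLR and 7 and 2 in BCR, led by Ndufaf8 at 2.53 and 1.71. Complex III factors had 3 higher and 1 lower in each, complex II factors 0 and 1 in TLR and 2 and 0 in BCR, and complex V factors 1 and 1 in TLR and 1 and 0 in BCR. Transcriptional regulators had 7 higher and 10 lower in TLR (median -0.34) and 6 and 3 in BCR cultures. Myc, a growth regulator whose targets include mitochondrial genes, led them in dEx1A, with 3.66 in TLR (adjusted p = 7.43e-16), 2.14 in BCR and 1.14 in LPS cultures. In the LPS day 7 comparison, which lies within 1 depth set, the only other calls among these lists were Sco1 at 1.18 and Lyrm7, an assembly factor of complex III, at -1.53.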

How the data were processed

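Total RNA depleted of ribosomal RNA was sequenced as single reads of 76 bases (TruSeq Stranded Total RNA, NextSeq), per the labels' protocols. The authors deposited log2 values that are variance-stabilised gene estimates. Per the submitters' processing notes, the tools named are STAR 2.6.0c, RSEM 1.3.0, Trim Galore 0.6.0, FastQC 0.11.8, and DESeq2 1.22.2 under R 3.5.1, and GRCm38.p6 is among the builds named. Per the file headers, one table holds WT TLR and BCR samples with day 0, another both genotypes, and the 15 columns they share were identical.

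Values were tested as deposited in limma 3.58.1 (R 4.3.3): group means over all groups of a table, a trend on the mean, two-sided contrasts and Benjamini-Hochberg adjustment over 19497 or 20331 genes that exceeded the value of a count of 0 (3.04) by 1 in at least 3 samples. Reads were recovered by inverting the transformation, and 95.1 to 100% of low values came out whole within 0.1. Gene totals set the depth of 15.1 to 35.6 M reads, and intervals and floors (95%, 3 reads) cover counting error only. The 45 same-group pairs of libraries differed by more than sampling noise (chi-square per gene 10.2 to 427), so none was merged. Scripts were tested on simulated data.

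Named members were the 3 largest rises and falls per comparison among those called whose groups do not overlap, 1 core member per complex, alternative isoforms, the extreme called genes of each pathway list, and members of counts up to 5; others, such as Ndufs1, Sdhb and Sdhc, were named after their values were seen. Members and lists were chosen with earlier results of these data known. Alternatives were no filter, the compared groups alone, a correction for GC content and length, a replicate block, median centring, voom with TMM on recovered reads, leaving out each library and, added later, leaving out BCR day 10 samples 1 and 2. The 11 matching rows that are not protein-coding were left out. The depth of each library and its strand setting bear on counts of overlapping genes, and the strand setting is not given in the sources used here.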

Additional observations from a re-analysis of the deposited data

Results flagged for a closer look

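The change from day 4 to day 7 differed between 2 groups, by a test of that difference (limma, adjusted over all genes), for 16 results chosen as the largest among those called. Between WT TLR and BCR cultures it was larger in TLR for Ndufa4 (1.25 on the log2 scale) and Uqcrfs1 (0.74). In LPS cultures it was larger in dEx1A than in WT cells for Uqcrq (1.94) and Ndufa1 (1.13). In TLR cultures it was larger in dEx1A for Atp5d (5.16), Atp5g2 (4.92) and Ndufa13 (4.62). It was smaller in dEx1A TLR cultures for the second Atp5o row (-2.52), Ndufb4 (-2.28) and Cox4i2 (-1.89). In BCR cultures it was larger in dEx1A for Uqcr11 (3.17), Uqcr10 (3.14) and Cox6b2 (2.94), and smaller for Cox4i2 (-2.37), the second Atp5o row (-1.75) and Cox7b2 (-1.15). The TLR and BCR genotype results set shallow dEx1A day 7 libraries with a GC offset of 0.73 to 1.68 beside deeper libraries. The part of that difference in them was not tested. With 1 library left out, the calls of Uqcrfs1, Ndufa1, and in BCR Uqcr11, the second Atp5o row and Cox7b2 were lost, with adjusted p of up to 0.0633, 0.103, 0.0519, 0.21 and 0.0655.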

How the results depend on the processing

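Of the 24 counts of members called, those of day 4 against day 0 and of dEx1A against WT in TLR and BCR cultures at day 7 stayed within 1.5 times of their value under all alternatives. Leaving out 1 library gave 39 to 49 calls for TLR day 4 over day 0, 39 to 51 for BCR, 73 to 75 for LPS, 35 to 43 and 42 to 54 for day 10 over day 0 in TLR and BCR, and 55 to 60 and 59 to 75 for dEx1A over WT at day 7 in TLR and BCR. Smaller counts ranged over 16 to 25 for TLR and 15 to 25 for BCR day 7 over day 4, 0 to 2 for LPS, 1 to 2 for TLR and 2 to 16 for BCR day 10 over day 7, 0 to 5, 0 to 1 and 0 to 12 for TLR over BCR at days 4, 7 and 10, and 8 to 15, 1 to 1, 0 to 17 and 0 to 0 for dEx1A over WT in LPS day 4, LPS day 7, TLR day 4 and BCR day 4. The differences of steps ranged over 1 to 4 and 0 to 1 (TLR less BCR, days 4 to 7 and 7 to 10), 1 to 2 (LPS), 50 to 60 (TLR) and 24 to 53 (BCR). The direction of TLR over BCR at day 7 reversed without TLR sample 2, with 1 call, lower.

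With no filter the counts were 1 for TLR day 10 over day 7, 0 for TLR over BCR at day 10, 2 for LPS day 7 over day 4, and 1 and 5 for dEx1A over WT in LPS day 7 and TLR day 4. With only the compared groups in the fit they were 0 for day 10 over day 7 in TLR and in BCR, 15 for BCR day 7 over day 4, 1, 1 and 0 for TLR over BCR at days 4, 7 and 10, 0 for dEx1A over WT in TLR day 4 and 23 for the BCR genotype step. With the correction for GC content and length they were 41 and 44 for TLR and BCR day 7 over day 4, 9 for LPS day 7 over day 4, 4 for TLR day 10 over day 7, 13, 5 and 5 for TLR over BCR at days 4, 7 and 10, 9 for the TLR less BCR step and 4 for the LPS genotype step. Median centring gave 2 for BCR day 10 over day 7, 1, 0 and 0 for TLR over BCR at days 4, 7 and 10, and 1 for dEx1A over WT in LPS day 7 and for the LPS step. Voom gave 3 for BCR day 10 over day 7, 1 and 0 for TLR over BCR at days 7 and 10, and 1 for dEx1A over WT in LPS day 7. Leaving out BCR day 10 samples 1 and 2, chosen after seeing the data, gave 4 for BCR day 10 over day 7 and 0 for TLR over BCR at day 10. The causes were not tested.

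Centring moved the median of all genes by over 0.1, to -0.30 from 0.05 for BCR day 10 over day 0, where the members' median was 0.41, and to -0.39 from -0.04 for the TLR genotype step. It turned the split of calls to 9 higher and 1 lower (4 and 4 uncentred) for dEx1A over WT in TLR day 4, 1 and 1 (9 and 0) for BCR day 10 over day 7, and 41 and 16 (48 and 10) for the TLR genotype step. Among named members, Cox7a1 (-0.28) and Ndufa4l2 (-0.16) reversed for LPS day 4 over day 0 with the correction for GC content and length. Samples with the same replicate number were not paired: of 63 and 234 pairs in the 2 tables, 25 and 77 correlated over 0.1 in their deviations, with medians of 0.03 and 0.01. With the replicate block the counts were 1 for TLR day 10 over day 7 and 1 for TLR over BCR at days 7 and 10, and the other 21 counts stayed within 1.5 times. Depth limits Cox4i2, Cox6a2, Cox6b2, Cox7b2 and Ndufa4l2, whose groups hold few or no reads.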
